A study of Mus musculus with 2 samples.

Results

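A gene with alternative last exons makes transcripts that end in different places, each with its own final exon. In left cerebral cortex of mice, 134 such genes were found among 4268 genes with enough long reads to judge them. A gene was taken when it had 20 or more reads in Known multi-exon transcript models in each library and when these models used 2 or more last exons that do not overlap in the genome. The members were chosen by these read counts: the last exon with the second highest count (the second last exon) had to hold 5% or more of the reads in both libraries. The last exon with most reads is called the leading last exon. Known models are those that match an annotated transcript, and their reads are called Known spliced reads here. Of the 4268 genes, 651 used at least 2 separate last exons, and 517 of these had a second last exon under the threshold. In all, 18366 annotated genes had a read.

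The samples were left cerebral cortex from male mice of the B6CASTF1/J cross, first-generation hybrids of the C57BL/6J and CAST/EiJ strains, at 14 days of age. There was 1 group of 2 libraries, replicate 1 and replicate 2, each sequenced as long reads from 2 µg of total RNA with Ambion and Lexogen spike-ins. The labels number them as biological replicates, with sample names that differ in a number, but both carry the same donor identifier and mention several males. A library may thus stand for pooled animals, and whether the libraries came from separate animals is not settled by the labels. Differences between the libraries therefore measure only the spread between these 2 samples, which may be technical.

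A last exon sets both the end of the protein and the untranslated region that follows it. In vertebrates an upstream last exon is used either when a skipped terminal exon is spliced in and polyadenylated, or when an intron is left in place and a poly(A) site inside it is cleaved. Neurons are known for shifts between such ends, which can swap a membrane anchor, remove a C-terminal domain or change where an mRNA goes. In these data the last exon of a read is that of the model it was assigned to, and the position where the read itself ended was not used.

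The sequences below give the coding part of the last exons in 6 genes with both ends coding. They need not be the whole difference between 2 models. The Homer1 second last exon shares its 3′ splice site with an internal exon of another Known model, so its first bases are also in that model. Each is the coding part of a last exon of the most-read model, read from the GENCODE M21 transcripts (GRCm38, the build called mm10), 5′ to 3′ on the gene strand, with the stop codon in capitals. The second last exon stands before the leading one, and for Lamp2 a further last exon, the third by reads, follows.
Cdc42 second, chr4:137322530-137322619 (-): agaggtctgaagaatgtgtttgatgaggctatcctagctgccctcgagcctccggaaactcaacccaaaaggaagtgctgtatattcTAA
Cdc42 leading, chr4:137321103-137321192 (-): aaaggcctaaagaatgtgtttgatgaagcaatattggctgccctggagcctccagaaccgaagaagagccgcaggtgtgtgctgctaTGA
Prkcb second, chr7:122633745-122633897 (+): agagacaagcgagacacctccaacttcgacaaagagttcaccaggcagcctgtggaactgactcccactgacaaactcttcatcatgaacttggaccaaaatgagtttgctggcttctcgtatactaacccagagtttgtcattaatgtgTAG
Prkcb leading, chr7:122627656-122627814 (+): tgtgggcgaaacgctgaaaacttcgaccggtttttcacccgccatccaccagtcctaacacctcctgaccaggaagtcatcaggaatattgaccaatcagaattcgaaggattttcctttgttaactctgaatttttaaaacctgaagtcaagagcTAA
Homer1 second, chr13:93355940-93356113 (+): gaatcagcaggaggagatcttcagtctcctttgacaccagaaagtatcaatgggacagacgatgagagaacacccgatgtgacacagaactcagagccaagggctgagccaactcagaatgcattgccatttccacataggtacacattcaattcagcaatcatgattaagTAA
Homer1 leading, chr13:93402041-93402229 (+): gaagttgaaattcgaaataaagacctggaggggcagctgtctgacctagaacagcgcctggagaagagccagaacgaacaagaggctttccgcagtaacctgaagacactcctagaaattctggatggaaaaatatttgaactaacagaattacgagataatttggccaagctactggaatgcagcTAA
Lamp2 second, chrX:38421712-38421851 (-): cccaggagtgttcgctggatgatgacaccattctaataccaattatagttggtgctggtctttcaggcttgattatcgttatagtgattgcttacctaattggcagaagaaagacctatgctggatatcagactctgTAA
Lamp2 leading, chrX:38402139-38402281 (-): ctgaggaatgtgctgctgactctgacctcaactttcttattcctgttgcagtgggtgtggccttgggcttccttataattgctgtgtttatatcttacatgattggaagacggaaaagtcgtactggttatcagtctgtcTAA
Lamp2 further, chrX:38405432-38405571 (-): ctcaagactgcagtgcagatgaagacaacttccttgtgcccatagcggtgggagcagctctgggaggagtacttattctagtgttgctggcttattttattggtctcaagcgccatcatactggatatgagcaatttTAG
Qk second, chr17:10209615-10209631 (-): ccgccaccggcaacTAA
Qk leading, chr17:10214169-10214194 (-): gtatggctttcccaacgaaaggcTAA
Tpm1 second, chr9:67028076-67028167 (-): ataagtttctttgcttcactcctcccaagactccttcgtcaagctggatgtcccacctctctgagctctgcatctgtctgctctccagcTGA
Tpm1 leading, chr9:67024492-67024565 (-): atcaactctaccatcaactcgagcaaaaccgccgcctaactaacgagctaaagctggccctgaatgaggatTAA
The 2 coding ends of Cdc42 were both 90 bases long and shared 59 bases at the same position (65.6%). Those of Lamp2 were 140, 143 and 140 bases long in the order shown, and the Qk ends were short, 17 and 26 bases. The Qk models code for 1026 bases with the second end and 960 with the leading one, so they also differ before the last exon.

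Most second and most leading last exons carried a poly(A) signal near the annotated end. The windows below, 30 bases long, show it for 3 genes whose second last exon lay upstream, with the signal (AATAAA or ATTAAA) in capitals.
Cdc42 second end, chr4:137321766-137321795 (-): tttgaaATTAAAaatatacaattgtttgta
Cdc42 leading end, chr4:137319701-137319730 (-): agatgtATTAAAcaaacaaaacccttcaca
Olfm1 second end, chr2:28214396-28214425 (+): attctcaactgacaAATAAAggcctttccc
Olfm1 leading end, chr2:28230707-28230736 (+): ctaaggaacAATAAAgatattaggagataa
Cstf3 second end, chr2:104611374-104611403 (+): caagaaAATAAAgctttgttaatacgttgt
Cstf3 leading end, chr2:104665399-104665428 (+): gaaaggAATAAAaggacctcaaaaacatgc
Cstf3 encodes a subunit of the cleavage stimulation factor, part of the machinery that makes such ends.

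The libraries held 775048 mouse reads in replicate 1 and 924222 in replicate 2, and the members 10244 and 11418 Known spliced reads. The tissue label was set against marker genes. All 4 cortical excitatory neuron markers had reads in both libraries, and the 2 cerebellum markers had none. The libraries differed in marker genes of striatum, myelin, choroid plexus and blood, and the source of these differences was not tested. All 5 striatum markers that could be tested were higher in replicate 1, where the 6 markers summed to 911 CPM (reads scaled by the mouse reads of the library), against 220 CPM in replicate 2. The 3 myelin markers summed to 2423 CPM in replicate 1 and 1574 CPM in replicate 2, and both of the 2 that could be tested were higher in replicate 1. Of 3 choroid plexus markers only 1 could be tested, Ttr, which had 36.1 CPM in replicate 1 and 246.7 CPM in replicate 2. The others had few reads, Kl 2 and 4 and Clic6 0 and 5 in replicates 1 and 2. The 2 haemoglobin genes summed to 214 CPM in replicate 1 and 428 CPM in replicate 2. The part of these differences in the last exon values was not tested. In bulk tissue, fewer cells of a type and less RNA per cell cannot be told apart.

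Across the 134 genes the second last exon held 2319 of 10244 Known spliced reads in replicate 1 (22.6%) and 2734 of 11418 in replicate 2 (23.9%). The share per gene ran from 5% to 63.3% in replicate 1, with a median of 16.5%, and from 5% to 58.3% in replicate 2, with a median of 18.2%. These shares chose the members and are given as a description. They were 10% or more in both libraries in 93 genes, 20% or more in 51 and 40% or more in 13. The second last exon had more reads than the leading one in replicate 1 alone in Polr1d, Slco3a1, Sin3b, Odf2 and Insyn1, and in replicate 2 alone in Lamp2, Gabbr1, Srsf10, Dennd6a and Ccnc. A further last exon had a read or more in 36 members, and it held 5% or more in both libraries in 12.

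**Figure D1:**
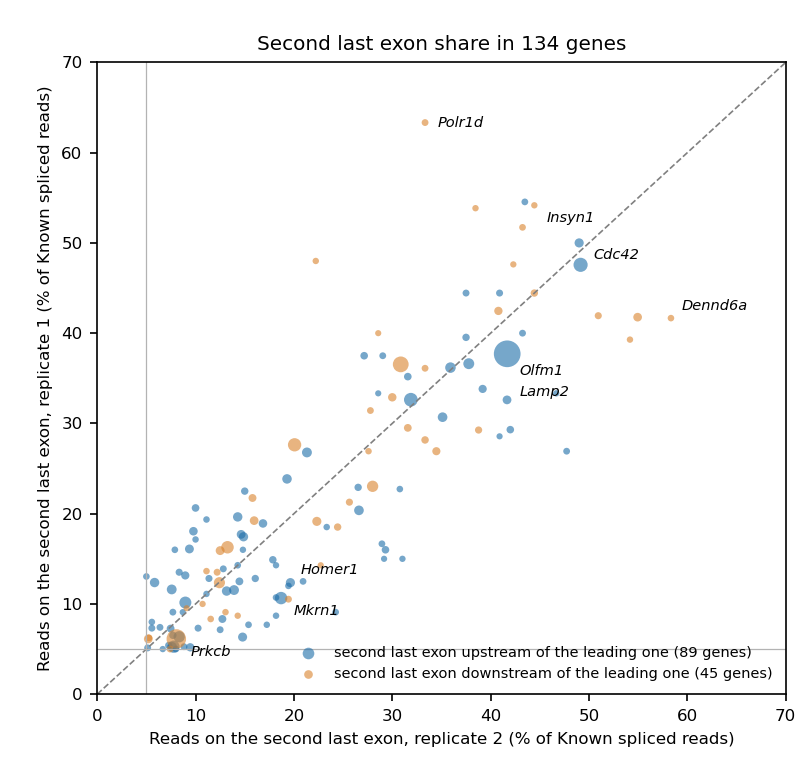
Each point is 1 of the 134 genes, with the percentage of its Known spliced reads on the second last exon in replicate 1 (vertical axis) against replicate 2 (horizontal axis); point area grows with the reads of the gene. Grey lines mark the 5% threshold and the dashed line equal shares. Genes with many reads such as Olfm1 and Cdc42 lie near the dashed line, and Polr1d, with 30 and 42 reads, lies farthest from it.

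Several members act at the synapse or on neuronal membranes. Olfm1, which encodes olfactomedin 1, a secreted neuronal glycoprotein, had most reads of all members. Its short end at chr2:28214101-28214425 took 399 of 1058 reads in replicate 1 (37.7%, 95% Wilson interval 34.8 to 40.7) and 549 of 1317 in replicate 2 (41.7%, 39.1 to 44.4). The model with this end codes for 462 bases, stop codon included, against 1458 bases with the leading end. The intervals of the libraries overlap, and in both the short Olfm1 end was the less used one.

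Syn2 encodes synapsin II, which coats synaptic vesicles. Its downstream last exon held 129 of 353 reads in replicate 1 (36.5%) and 129 of 418 in replicate 2 (30.9%). The most-read Syn2 model with the leading last exon is annotated in GENCODE as retained intron, without a coding region. This describes that model alone and not every Syn2 model with the leading end. Homer1, a postsynaptic scaffold gene whose short, activity-induced form lacks the coiled coil, had 11 of 89 reads on its upstream end in replicate 1 (12.4%, 7.04 to 20.8) and 22 of 112 in replicate 2 (19.6%, 13.3 to 28.0). The model with this end codes for 561 bases, against 1101 bases with the leading end.

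Gabbr1, a subunit gene of the GABA-B receptor, had 33 of 79 reads on its second last exon in replicate 1 (41.8%) and 50 of 91 in replicate 2 (54.9%). Its second last exon lies downstream and ends the long model of 18 exons, while the leading one ends a model of 4 exons. Insyn1, which encodes a component of inhibitory synapses, had 13 of 24 reads on the second last exon in replicate 1 (54.2%) and 12 of 27 in replicate 2 (44.4%), and its leading model is annotated as retained intron. Slco3a1, an organic anion transporter gene, had 12 of 22 in replicate 1 (54.5%) and 20 of 46 in replicate 2 (43.5%). With 20 to 50 reads a gene, shares of this size have wide intervals.

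Signalling genes had ends that swap the tail of an enzyme or a small GTPase. Cdc42, a small GTPase that organises actin, ended in the upstream exon shown above in 147 of 309 reads in replicate 1 (47.6%, 42.1 to 53.1) and 144 of 293 in replicate 2 (49.1%, 43.5 to 54.8). The 2 tails carry different lipid anchor motifs and are known as the brain type and the general type of the protein. Both Cdc42 models code for 576 bases. Prkcb, protein kinase C beta, whose known isoforms differ in the C-terminal segment, had 36 of 588 reads on the downstream end in replicate 1 (6.12%, 4.45 to 8.36) and 51 of 634 in replicate 2 (8.04%, 6.17 to 10.4). Cdc42 was thus split almost evenly and Prkcb was close to the threshold, in both libraries.

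Ppm1b, a metal-dependent protein phosphatase gene, had 52 of 142 reads on its upstream end in replicate 1 (36.6%) and 68 of 180 in replicate 2 (37.8%). Rundc3a, which encodes a RUN domain protein, had 77 of 236 in replicate 1 (32.6%) and 103 of 323 in replicate 2 (31.9%). The upstream and leading last exons of Rundc3a lie 226 bases apart. Ppp1r2, inhibitor 2 of protein phosphatase 1, had 14 of 220 in replicate 1 (6.36%) and 11 of 132 in replicate 2 (8.33%).

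**Figure D2:**
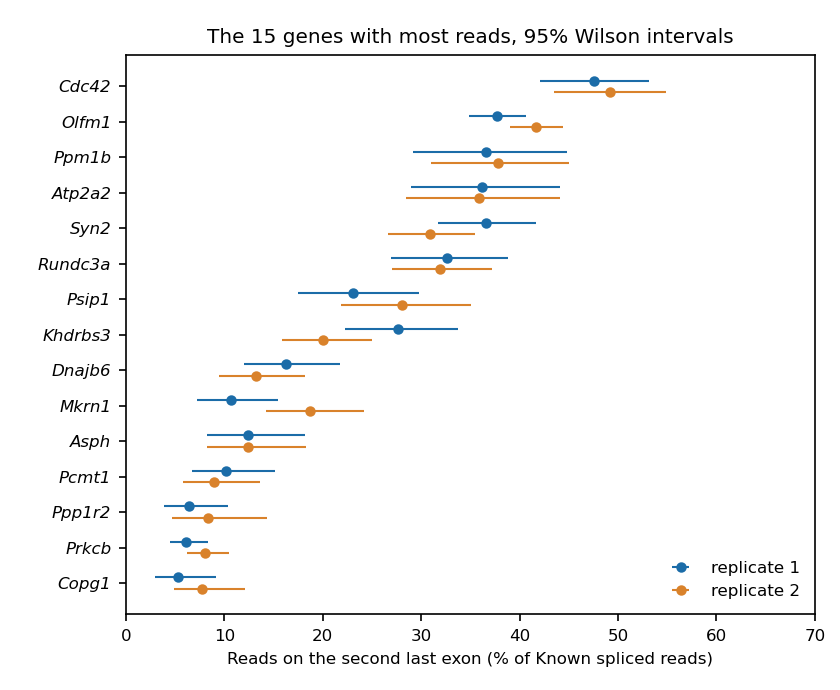
Percentage of Known spliced reads on the second last exon (horizontal axis) in the 15 members with most reads, for replicate 1 and replicate 2, with 95% Wilson intervals as bars. Cdc42 stood highest at 47.6% and 49.1%, and Copg1 lowest at 5.26% and 7.76%.

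Regulators of RNA were among the members. Khdrbs3, a brain RNA-binding protein of the STAR family, had 63 of 228 reads on its downstream last exon in replicate 1 (27.6%) and 59 of 294 in replicate 2 (20.1%). The most-read Khdrbs3 model with this end is annotated as a target of nonsense-mediated decay. Qk, a STAR family gene whose products with different tails act in myelinating glia, had 15 of 78 in replicate 1 (19.2%) and 15 of 94 in replicate 2 (16%). The leading group of Qk joins 2 overlapping last exons, of Qk-206 with 48 and 57 reads and of Qk-201 with 15 and 22 reads.

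Stau2, a double-stranded RNA-binding protein that travels with dendritic mRNA, had 50 of 100 reads on its upstream last exon in replicate 1 and 49 of 100 in replicate 2. Srsf10, a splicing regulator, had 13 of 31 in replicate 1 (41.9%) and 27 of 53 in replicate 2 (50.9%). Psip1, a chromatin reader gene with a short and a long product, had 41 of 178 on the downstream end in replicate 1 (23.0%) and 49 of 175 in replicate 2 (28.0%). The ends of Stau2 were thus used equally, at 100 reads in each library.

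Members also came from the machinery of 3′ end formation itself. Of 25 cleavage and polyadenylation genes, 11 had enough reads, 3 of these used 2 last exons and 2 were members. Over all 4268 genes with enough reads, 651 used 2 or more last exons and 134 were members. No gene list was tested against these counts. Papola, the canonical poly(A) polymerase, had 17 of 43 reads on an upstream last exon in replicate 1 (39.5%) and 21 of 56 in replicate 2 (37.5%). The model with this end codes for 882 bases, against 2157 bases with the leading end. Cstf3 had 3 of 20 in replicate 1 (15%) and 9 of 29 in replicate 2 (31.0%), on an exon 53310 bases upstream whose most-read model is annotated as retained intron. Of 21 brain RNA-binding regulators, 9 had enough reads, 5 of these used 2 last exons and 2 were members, Khdrbs3 and Qk.

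A list of 20 genes with textbook alternative ends gave 12 with enough reads, 10 with 2 last exons and 5 members, which were Homer1, Cdc42, Tpm1, Tpm3 and Syn2. Tpm1 and Tpm3 encode tropomyosins, which wrap actin filaments. Tpm1 had 15 of 86 reads on its upstream end in replicate 1 (17.4%) and 18 of 121 in replicate 2 (14.9%). Tpm3 had 13 of 72 in replicate 1 (18.1%) and 9 of 92 in replicate 2 (9.78%). These are shares of Known reads, and more Tpm3 reads had unannotated intron chains. Of those, 6 of 242 lay on the second last exon in replicate 1 (2.48%) and 10 of 267 in replicate 2 (3.75%). The test of such reads, described below, did not call Tpm3 in both libraries. Gria2, an AMPA receptor subunit gene, was the listed gene nearest below the threshold, with 8 of 182 (4.40%) in replicate 1 and 9 of 191 (4.71%) in replicate 2.

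Genes for protein folding, transport and turnover made up several of the other members with many reads. Dnajb6, a co-chaperone gene, had 35 of 215 reads on its downstream end in replicate 1 (16.3%) and 31 of 234 in replicate 2 (13.2%). Mkrn1, an E3 ubiquitin ligase gene, had 23 of 216 on its upstream end in replicate 1 (10.6%) and 43 of 230 in replicate 2 (18.7%). Pcmt1, which repairs damaged aspartyl residues, had 20 of 197 in replicate 1 (10.2%) and 19 of 212 in replicate 2 (8.96%). Copg1, a subunit of the COPI coat of transport vesicles, had 11 of 209 in replicate 1 (5.26%) and 17 of 219 in replicate 2 (7.76%).

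Atp2a2, the calcium pump of the endoplasmic reticulum, had 55 of 152 reads on its upstream last exon in replicate 1 (36.2%) and 51 of 142 in replicate 2 (35.9%). The leading Atp2a2 model is annotated as a target of nonsense-mediated decay, and both models code for 3135 bases. Asph encodes aspartyl hydroxylase and the calcium store proteins junctin and junctate. On its second last exon, which lies downstream, Asph had 21 of 170 in replicate 1 (12.4%) and 21 of 169 in replicate 2 (12.4%). Lamp2, a lysosomal membrane protein with 3 known tails, had 30 of 92 on the second in replicate 1 (32.6%) and 35 of 84 in replicate 2 (41.7%), and 21 (22.8%) and 24 (28.6%) on the third. Lamp2 was named after its values were seen. All 3 Lamp2 tails shown above were thus in use, each with 21 or more reads in each library.

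The remaining genes with the largest shares were of transcription and membrane traffic. Dennd6a, an exchange factor gene for Rab GTPases, had 15 of 36 reads on the second last exon in replicate 1 (41.7%) and 14 of 24 in replicate 2 (58.3%). Polr1d, a subunit of RNA polymerases I and III, had 19 of 30 in replicate 1 (63.3%) and 14 of 42 in replicate 2 (33.3%). Sin3b, a corepressor scaffold gene, had 15 of 29 in replicate 1 (51.7%) and 16 of 37 in replicate 2 (43.2%), and Ccnc, cyclin C of the Mediator kinase module, had 11 of 28 in replicate 1 (39.3%) and 13 of 24 in replicate 2 (54.2%). In these genes the libraries could differ in which last exon had more reads. At the threshold, 2510009E07Rik (1 of 20 and 2 of 30 reads in replicates 1 and 2), Faap100 (2 of 40 and 2 of 25) and Rgs12 (2 of 40 and 2 of 27) were just inside, and Clpb (3 of 63 and 6 of 97), Dnm2 (1 of 21 and 2 of 23) and Zfp655 (1 of 20 and 1 of 21) just outside. A single read decides membership there.

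No gene passed the test of a difference in second last exon share between the libraries. Reads on the second last exon were set against those on all other last exons, replicate 1 against replicate 2, with Fisher's exact test (2-sided) and Benjamini-Hochberg adjustment over the 651 genes. By this test none of the 134 members passed an adjusted p of 0.05, nor did any of the 651 genes (0%), and the lowest adjusted p was 1. At an unadjusted p under 0.05, 3 members stood out, in a background of 11 of 651 genes (1.69%). By the exact test these were Polr1d (30 percentage points higher in replicate 1, unadjusted p = 0.0166), Mkrn1 (a difference of -8.05 points, lower in replicate 1, unadjusted p = 0.0228) and Khdrbs3 (7.56 points higher, unadjusted p = 0.0477). The absolute difference had a median of 4.31 points over the members, and the SD of the 2 libraries a median of 3.05 points. The share was higher in replicate 1 in 60 members and lower in 70. Across genes, which share the 2 libraries, Pearson's r of the shares was 0.850 over the 134 members and 0.907 over the 651 genes, as a description. The shares tested here are those that chose the members, which had to reach the share threshold in both libraries. A gene whose share fell below that threshold in either library was left out. The count of members called, their differences and their r are thus limited by the rule and are no evidence that the libraries agree. The 651 genes were not chosen by these shares. The test sets the libraries against counting error only and compares 2 libraries, not conditions.

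The second last exon lay upstream of the leading one in 89 members (66.4%), and downstream in 45. Among the 517 other genes it lay upstream in 475 (91.9%). The distance between the exons had a median of 6517 bases and ran from 5 bases in Grk6 to 546062 bases in Ctnnd2. The median share, as the mean of the libraries, was 15.3% over the upstream exons and 25.5% over the downstream ones. Since the exon with more reads is named leading by its count, these positions describe the annotation at the exons and not a direction of change.

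Many second last exons began at a splice site that longer transcripts also use. In 66 of 134 members (49.3%) the second last exon shared its 3′ splice site with an internal exon of another Known model with a read, and 63 of these lay upstream. Among the other genes the count was 418 of 517 (80.9%). Such sharing was seen in Homer1, Stau2, Papola and Cstf3. In Cdc42, Olfm1, Lamp2 and Tpm1 no internal exon of a Known model with a read began where the second last exon did.

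The ends were mostly annotated as coding. The most-read model of the second last exon was protein-coding in 99 members, retained intron in 19, processed transcript in 12, a nonsense-mediated decay target in 3 and lincRNA in 1. For the leading last exon the protein-coding models numbered 124. Both last exons held a stop codon in 84 members (62.7%), against 141 of the 517 other genes (27.3%), and in 53 of the 84 the model with the second last exon had the shorter coding region. The median length of the most-read model was 2080.5 bases with the second last exon and 2760 bases with the leading one.

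A poly(A) signal was searched as AATAAA or ATTAAA on the transcript strand in the last 50 bases of the most-read model. It was found for the second last exon in 93 members (69.4%) and for the leading one in 102 (76.1%). Among the other 517 genes the second last exon had it in 31.9%, and over all 4268 genes the leading last exon had it in 80.0%. Both signals were present in Cdc42, Olfm1 and Cstf3, as printed above. A match describes these letters in an annotated end and is not evidence of cleavage there.

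**Figure D3:**
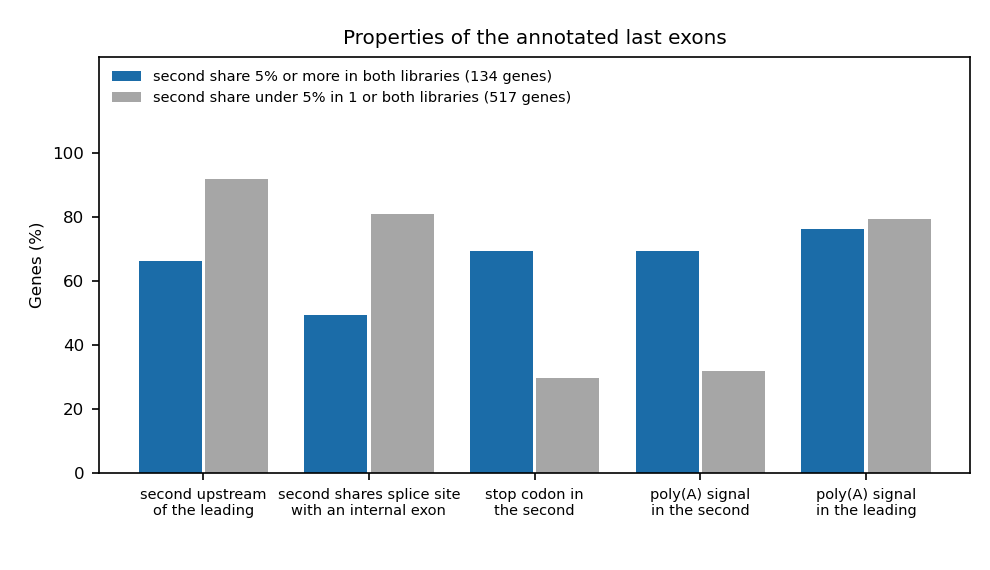
Percentage of genes (vertical axis) with each annotated property of the last exons, in the 134 members (blue, left) and in the 517 other genes with 2 last exons (grey, right). The second last exon carried a stop codon in 69.4% of members and 29.6% of the others, and a poly(A) signal in 69.4% and 31.9%, while signals in the leading last exon were at 76.1% and 79.3%.

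Reads with unannotated intron chains had not been used to choose the members. In NIC models every splice site is annotated but their combination is not, and NNC models have at least 1 splice site outside the annotation. Over the members, NIC and NNC reads fell on the second last exon 380 times and on the leading one 1678 times in replicate 1, which is 18.5% on the second, against 23.0% of Known reads on the same exons. In replicate 2 they fell on them 423 and 1886 times, which is 18.3%, against 24.3% of Known reads. The Known shares chose the members, so a lower share in reads that did not is what such a choice alone can give, and nothing is read from the pooled difference. Of 50 members with 10 or more such reads in both libraries, 5 passed Fisher's exact test in both with the same sign (10.0%), in a background of 10 of 216 genes (4.63%). This background includes the members, and the calls too were made against the Known shares of the rule.

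In 3 of them, NIC and NNC reads used the second last exon more often than Known reads did, in a background of 3.7% in this direction. Fbxo3, an F-box subunit gene of a ubiquitin ligase, had 30 of 35 such reads on its upstream last exon in replicate 1 (85.7%), against 6 of 72 Known reads (8.33%), and 28 of 32 in replicate 2 (87.5%), against 7 of 55 (12.7%). The log2 odds ratios were 5.83 (95% interval 4.08 to 7.58, adjusted p by the exact test 7.64e-14) and 5.36 (3.54 to 7.17, adjusted p 1.52e-10). A single chain of 11 exons that joins annotated splice sites held 28 and 26 of these Fbxo3 reads. Its last exon begins 1165 bases inside the Known second last exon and counts as the same exon only because overlapping last exons were joined. Of the 30 and 28 reads, 1 in replicate 1 and 0 in replicate 2 used the 3′ splice site of the Known exon.

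Zgpat, a zinc finger repressor gene, had 11 of 12 such reads on its downstream last exon in replicate 1 (91.7%), against 3 of 36 Known reads (8.33%), and 32 of 33 in replicate 2 (97%), against 3 of 26 (11.5%). This Zgpat exon overlaps an exon of another gene on the same strand, so its reads are uncertain. The most-read Zgpat chain had 0 reads in replicate 1 and 20 in replicate 2, so different chains carried the result in the libraries. Qk had 16 of 26 on the second in replicate 1 (61.5%), against 15 of 78 Known reads (19.2%), and 13 of 27 in replicate 2 (48.1%), against 15 of 94 (16%), with adjusted p by the exact test of 0.00267 and 0.0228. The tail of Qk that Known reads used less was thus the more used, or used about equally, among its unannotated chains.

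In the other 2 genes, NIC and NNC reads used the second last exon less often. The background in this direction is 0.926% and consists of these 2 genes alone. The other genes had a second share under 5% in a library by the rule, with little room to be lower, so it gives no comparison. Eif4e2, a cap-binding repressor of translation, had 0 of 35 such reads on it in replicate 1, against 14 of 30 Known reads (46.7%), and 1 of 25 in replicate 2 (4.00%), against 16 of 34 (47.1%). Mkrn1 had 0 of 67 in replicate 1, against 23 of 208 Known reads (11.1%), and 0 of 74 in replicate 2, against 43 of 228 (18.9%), with adjusted p by the exact test of 0.0289 and 1.08e-04. A count of 0 allows a share of up to 8.57% in 35 reads, 4.48% in 67 and 4.05% in 74.

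**Figure D4:**
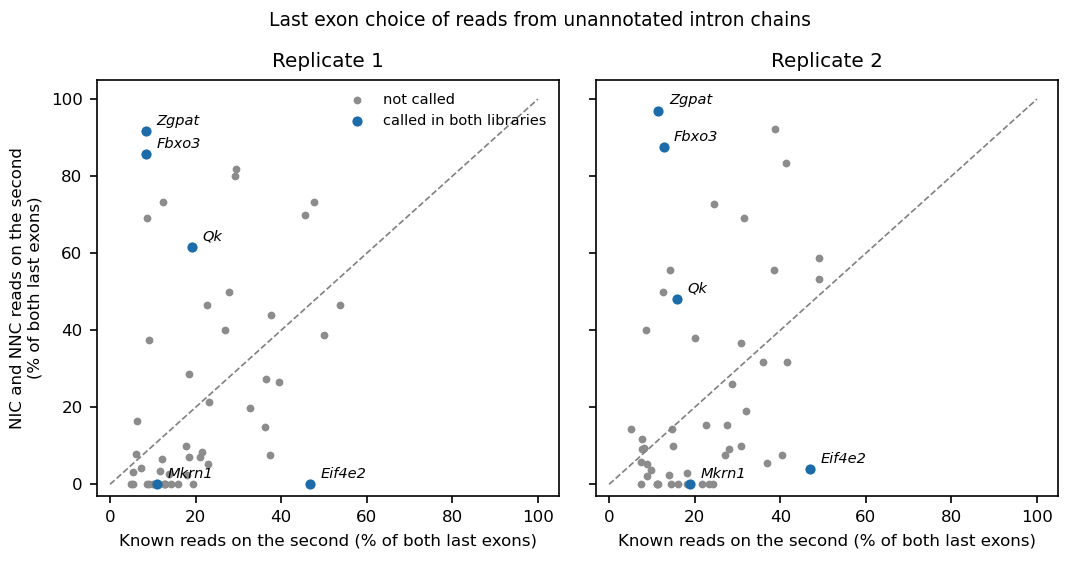
Percentage of reads on the second last exon, among reads on the second and leading last exons, for NIC and NNC reads (vertical axis) against Known reads (horizontal axis) in 50 members, with replicate 1 on the left and replicate 2 on the right. The dashed line marks equal percentages; Fbxo3, Zgpat and Qk lie above it and Eif4e2 and Mkrn1 below it in both libraries.

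Reads that cover only the 3′ part of an annotated intron chain (ISM suffix reads) were also counted on the same exons. Of 18 members with 10 or more such reads in both libraries, 4 passed in both (22.2%), in a background of 8 of 113 genes (7.08%). The background includes the members, and these calls too were made against the Known shares that chose the members. By the rule, the other genes had a second share under the threshold in a library, with little room to be lower. The percentages therefore give no comparison of the members with other genes. In Srebf2, a regulator of sterol synthesis, 17 of 18 ISM suffix reads in replicate 1 and 14 of 15 in replicate 2 lay on the downstream last exon, against 10 of 21 and 11 of 26 Known reads. In Gabbr1 it was 26 of 26 in replicate 1 and 29 of 31 in replicate 2, against 33 of 79 and 50 of 91 Known reads. Nisch had 2 of 56 and 0 of 79 such reads on its upstream last exon in replicates 1 and 2, and Atp2a2 had 2 of 40 and 2 of 53. In all 4 genes the ISM suffix reads lay mostly on the downstream of the 2 last exons. Whether the number of exons in each model bears on these counts was not tested. In Cdc42, 30 of 67 such reads lay on the second last exon in replicate 1. In replicate 2 it was 0 of 51, and 51 further reads were assigned to neither exon, so the assignment can differ between the libraries. Nisch and Srebf2 were named after their values were seen.

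In some members the start of the transcript went with its end. Of 34 members whose Known models used 2 or more separate first exons, 12 could be tested in both libraries, and in 7 the first and last exons were associated in both with the same sign (58.3%). The background was 9 of 16 genes (56.2%), most of them members, so the count says nothing particular about the members. The test was Fisher's exact test per gene and library with Benjamini-Hochberg adjustment over 39 tests.

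Olfm1 had the most reads behind it. Of its reads with the short second end, 300 of 399 began at the leading first exon in replicate 1 (75.2%), against 421 of 659 with the leading end (63.9%), and in replicate 2 it was 422 of 549 (76.9%), against 511 of 768 (66.5%). The log2 odds ratios were 0.77 and 0.74, with adjusted p by the exact test of 4.37e-04 and 1.71e-04. All 4 combinations of the first and last exons of Olfm1 were read in both libraries, the least frequent 99 and 127 times.

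Wdr37, a WD repeat gene, had 5 of 5 reads with the second end beginning at the leading first exon in replicate 1, against 8 of 22 with the leading end, and 7 of 7 in replicate 2, against 10 of 23. Dclk1, a microtubule-binding kinase gene, had 2 of 5 in replicate 1, against 29 of 31, and 0 of 5 in replicate 2, against 26 of 31. Mkrn1 had 17 of 23 in replicate 1 (73.9%), against 180 of 185 (97.3%), and 33 of 43 in replicate 2 (76.7%), against 181 of 185 (97.8%). The Mkrn1 association no longer passed when NIC and NNC reads were added (log2 odds ratio -0.09 in replicate 1 and 0.38 in replicate 2, adjusted p by the exact test 1 and 0.840), and neither did that of Dclk1 (-0.43 and -1.70, adjusted p 0.943 and 0.279). Wdr37 then passed in replicate 2 alone (adjusted p by the exact test 0.225 in replicate 1 and 0.0283 in replicate 2). The most-read NIC chain of Mkrn1, with 45 and 51 reads, begins at the first exon that few Known reads with the leading end used.

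In Gabbr1, Cyhr1 and 1500011B03Rik, 1 of the 4 combinations cannot exist, because its last exon lies upstream of its first exon on the gene strand. In Gabbr1 the excluded combination is the second first exon with the leading last exon, while its leading first exon lies upstream of both last exons. In Cyhr1 and 1500011B03Rik it is the leading first exon with the second last exon, so their counts of 0 follow from the layout. With the second end, 0 of 33 Gabbr1 reads in replicate 1 and 0 of 50 in replicate 2 began at the leading first exon, against 45 of 46 and 40 of 41 with the leading end. The long and the short Gabbr1 model thus differed at both ends, and the same held for Cyhr1 (0 of 30 and 0 of 29, against 80 of 82 and 107 of 107) and 1500011B03Rik (0 of 12 and 0 of 15, against 81 of 83 and 82 of 87). With NIC and NNC reads added, Cyhr1 no longer passed, because the last exon at chr15:76643395-76646574 that no Known model with a read uses then had most reads and the compared pair of last exons changed.

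**Figure D5:**
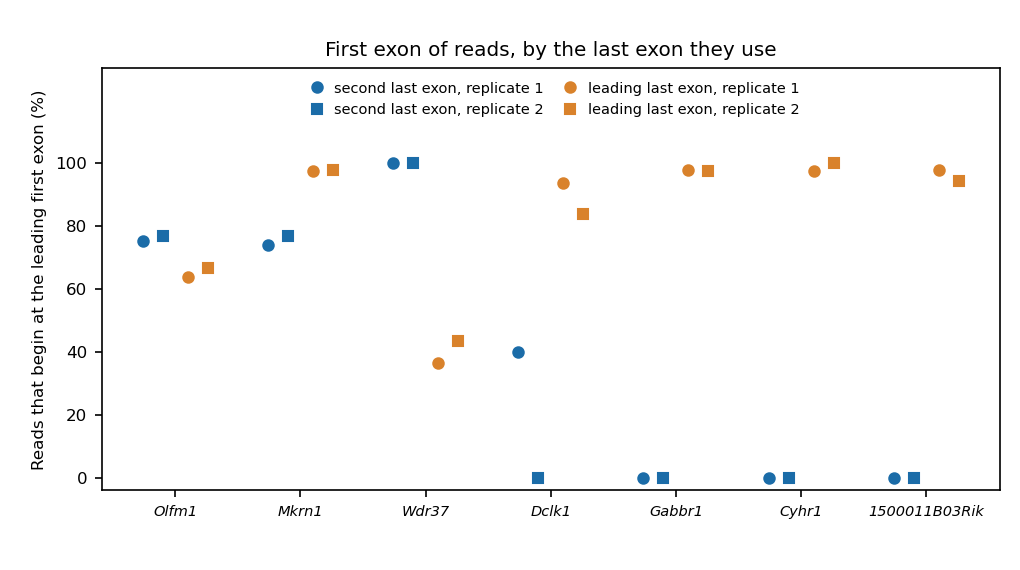
Percentage of Known spliced reads that begin at the leading first exon (vertical axis) in the 7 members with an association, for reads with the second last exon (blue, left) and the leading last exon (orange, right), with replicate 1 as circles and replicate 2 as squares. Olfm1 shows a small difference with many reads, while Gabbr1, Cyhr1 and 1500011B03Rik stand at 0% against 94.3% to 100%.

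The level of the members was like that of other genes with enough reads, with a median of 93.5 CPM in replicate 1 and 84.9 CPM in replicate 2, beside 89.03 and 89.3 CPM over the 4268 genes. A Fisher's exact test of all reads of a gene between the libraries called 3 of 134 members (2.24%), in a background of 236 of 11203 genes (2.11%). By the exact test, Epha7, an ephrin receptor gene, had 92 reads in replicate 1 and 46 in replicate 2 (log2 ratio 1.25, adjusted p 1.55e-04), and Ppp1r2 had 234 and 143 (0.96, adjusted p 7.29e-08). Both were higher in replicate 1, a direction in which 1.01% of all genes were called. Ccl27a, a chemokine gene, had 70 and 138 (-0.72, adjusted p 0.0295) and was lower in replicate 1 (1.1% of all genes). Epha7 and Ccl27a were named after their values were seen. The log2 ratio had a median of 0.07 over the members and 0.01 over all genes tested. Of the gene lists, 1 of 19 tested genes with textbook ends was called, Mbp, which is no member and was higher in replicate 1, and none of 24 cleavage and polyadenylation genes or 21 RNA-binding regulators (5 and 4 at an unadjusted p under 0.05).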

How the data were processed

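Long-read RNA-seq of total RNA gave, per library, a table of transcript models with raw read counts and the models' exons. Per the file headers and the text deposited with them, the authors built and counted the models in each library on mm10 with the GENCODE M21 annotation and spike-ins, and features outside the annotation are credited to TALON there. Aligner, filters and versions: not given in the sources used here. The unit of the deposited values is a count of reads per model, not normalized. Molecular identifiers are not mentioned, so intervals and floors cover counting error only.

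Spike-in models were left out. Each Known multi-exon model was given its annotated last exon, overlapping last exons of a gene were joined on the gene strand, and reads were summed. Known models hold annotated combinations only. Every test was Fisher's exact test with Benjamini-Hochberg adjustment over all genes tested and a threshold of 0.05. All comparisons but that of ISM suffix reads were checked on simulated data. With 200 of 651 genes changed 8-fold in odds, the test between libraries called 48% of them and none of the others. With 70 of 216 genes changed 16-fold in odds, the test of NIC and NNC reads called 44.3% of them and none of the others. NIC and NNC or ISM suffix reads needed 10 reads on both exons together, first and last exons 5 reads on the second of each, and gene levels 10 reads over both libraries. Log2 ratios used 0.5 added reads. Tests set read counts of 2 libraries or 2 read classes against each other with 1 library a side, so no spread between animals enters them.

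Genes were named if they were among the 15 members with most reads, the 10 with the largest second share, called in the last exon tests, the 3 on each side of the threshold, or in a gene list. The members and lists were chosen with earlier results of these data known. Python 3.11.15, numpy 2.4.6, pandas 2.3.3, scipy 1.17.1 and matplotlib 3.10.9 were used. Sequences are from GENCODE M21 transcripts.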

Additional observations from a re-analysis of the deposited data

Results flagged for a closer look

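Cyhr1 held a signal outside the Known reads. Here, reads of 8 NIC and NNC models ended in a last exon that no Known model with a read uses. A chain read in both libraries counts as 2 of these models. At that last exon, chr15:76643395-76646574 (minus strand), there were 87 reads in replicate 1 and 112 in replicate 2. They made up 43.7% of these and the Known spliced reads of Cyhr1 together in replicate 1 and 45.2% in replicate 2. The exon is annotated in GENCODE M21. The chain with most of these reads, a NIC chain of 4 exons and 4192 bases, had 81 reads in replicate 1 and 108 in replicate 2, and it begins at the leading first exon of the Known models.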

How the results depend on the processing

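The number of members moved with the read minimum, to 53 genes at 50 reads in each library and 238 at 10 reads, and to 234 when last exons were grouped by their 3′ splice site, 133 of them among the 134. Judged in 1 library alone it was 185 to 210 genes, with all 134 among them by construction. It was 93 with a second share of 10% or more, 199 with NIC and NNC reads included (111 shared) and 127 when exons that overlap another gene were left out, an alternative chosen after seeing the data. The test between libraries called 0 genes under each alternative read set run (13 to 19 at an unadjusted p under 0.05). Calls of NIC and NNC against Known reads numbered 9 to 10 when 1 library sufficed. They numbered 4 with a minimum of 20 such reads and 7 with models under 2 reads left out. With ISM suffix reads instead, 4 other genes were called, Atp2a2, Gabbr1, Nisch and Srebf2. The genes called with NIC and NNC reads lacked 10 ISM suffix reads in 1 or both libraries. First and last exon associations numbered 5 with 10 reads on the second exons, 9 when 1 library sufficed, and 3 with NIC and NNC reads added, where Mkrn1 turned to 0.38 in replicate 2 and Dclk1, Wdr37 and Cyhr1 lost their call. In Cyhr1 another pair of last exons was then compared; the cause was not tested in the others. The second last exon lay upstream in 60.2% of the 93 genes and in 59.8% of the 92 genes found with protein-coding models alone. Ccl27a lost its gene level call with Known reads alone (adjusted p by the exact test 0.0972). No paired analysis was possible because there is 1 group. At 20 to 50 reads a gene, a share is known only within wide intervals.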
